A study of Oryctolagus cuniculus with 9 samples.

Results

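Rabbit cells labelled as primary parathyroid cells were sequenced after 6 h of hypoxia followed by 6 h of reoxygenation, and set against untreated cells with the same label. The comparison was chosen by its sample labels: 3 libraries of the model group (H/R) and 3 of the negative control, 6 of the 9 libraries of the series. None of these 6 libraries received gallic acid, and the cell type rests on the label, since markers of parathyroid cells were nearly absent from them. The genotype field gives the controls as WT and the H/R cells as IRI, which here name the treatment and no allele. The other 3 libraries were pretreated with gallic acid and were not compared. Controls are labelled Day0, and nothing in the labels shows that both groups spent equal time in culture. The labels do not say whether libraries of a group came from separate animals or cultures, so p-values measure the spread between libraries only.

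Cells sense a fall in oxygen through prolyl hydroxylases (EGLN genes) that mark HIF1A for destruction by VHL while oxygen is present. In hypoxia HIF1A escapes and switches on glycolytic enzymes, VEGFA and other targets, and with the return of oxygen it is marked again. Reoxygenation also brings a burst of reactive oxygen, which the NRF2 pathway, ferritin and thiol enzymes buffer, while unfolded protein and amino acid shortage act through ATF4 and chaperones. Parathyroid cells secrete parathyroid hormone (PTH) in answer to blood calcium, and transplanted parathyroid tissue passes through the same loss and return of oxygen.

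The table lists FPKM (fragments normalised for transcript length and library size) for 19511 loci, with no read counts, so the depth of each library is unknown. The sum over all loci was 1674788 ± 24633 in control and 744230 ± 12247 in H/R (SD, n = 3 each, exact two-sided permutation p = 0.1, the smallest that 3 against 3 libraries can give). On the deposited values the median locus was lower in H/R as well, with a median change of -1.26 on the log2 scale. Each library was divided by a factor that brings its median locus to the same level, and "scaled FPKM" is the deposited FPKM divided by that factor. On this scale a locus that rises does so relative to the median locus, and a well-expressed locus must rise by more than 1.47 there to be higher in H/R on the deposited scale. FPKM values of different loci are not on a proven common scale per length, so levels are compared between groups and never between genes. Sums over loci are given for each group too, and loci with high FPKM weigh most in them.

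Of the loci, 10921 had FPKM of at least 1 in at least 3 of the 6 libraries and were tested with limma on log2(scaled FPKM + 1). At an adjusted p under 0.05, 6417 loci were called (58.8% of those tested), 3152 higher in H/R (28.9%) and 3265 lower (29.9%), around a median of -0.03. A change of at least 1 on the log2 scale was reached by 1167 of the higher loci (10.7% of those tested) and 503 of the lower ones (4.61%). The 3 libraries of one group lay wholly above the 3 of the other for 3533 loci in the direction of H/R (32.4%) and 3725 in that of control (34.1%). On the deposited scale 9841 loci were called (90.1%), 434 higher (3.97%) and 9407 lower (86.1%), and all 434 were also called higher relative to the median locus. The filter was passed only through H/R libraries by 59 loci and only through controls by 766, and such a locus had to be higher in that group on the deposited scale. In the lists below they numbered at most 3 of the loci tested, apart from lists where more are given. Below, rose and fell mean called relative to the median locus, and a list is described by the number of its loci that did so. Every change, with or without its standard error (SE), is on the log2(scaled FPKM + 1) scale unless the deposited scale is named. That scale understates changes of low loci.

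**Figure D1:**
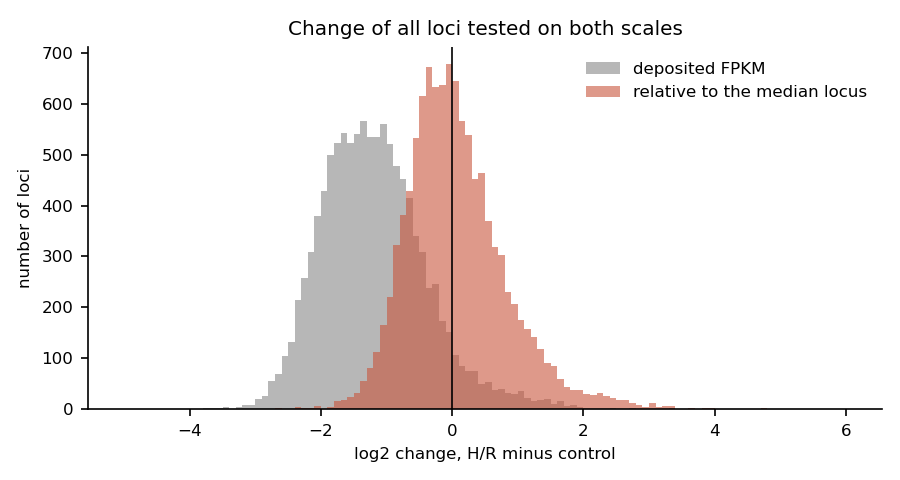
Histogram of the log2 change (H/R minus control, 3 libraries each) of the 10921 loci tested, in bins of 0.1, on the deposited FPKM (grey) and relative to the median locus (red). The deposited values centre at -1.26 and the scaled ones at -0.03.

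Controls 2 and 3 lay close together, as did the libraries of H/R, while control 1 stood apart. On log2(scaled FPKM + 1), Pearson r across loci was 0.997 between controls 2 and 3 and 0.991 to 0.992 between H/R libraries. It was 0.983 to 0.984 between control 1 and the other controls. The median coefficient of variation was 11.2% in control and 8.28% in H/R. Control 1 differed from the mean of the other controls by over 1 on the log2 scale at 356 loci, against 9 between controls 2 and 3. Without control 1, 2994 of the 3152 higher calls and 2884 of the 3265 lower calls were made again, among 6731 calls in all (66.6% of 10100 loci tested), 3415 higher (33.8%) and 3316 lower (32.8%). Values below are given in the order of libraries 1, 2 and 3, so that control 1 can be read first.

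The label was checked against the markers that define parathyroid cells. PTH, the hormone itself, had deposited FPKM of 0.142, 0.129 and 0.0972 in control and 0.0136, 0.0207 and 0.0377 in H/R, far under the filter of 1 in every library. CHGA, the secretory granule protein chromogranin A, reached at most 0.379 FPKM, and no locus is named CASR (the calcium-sensing receptor) or GCM2 (the transcription factor of parathyroid fate). Of 8 parathyroid markers, 6 had a locus, of which 1 was tested. Fibroblast markers were well measured, 9 of 14 having been tested, among them chains of collagen I and III. Their summed scaled FPKM was 75011 to 126950.0 in control and 38069.7 to 38189 in H/R. The collagen I chain COL1A2 alone made up most of this sum in every library. Markers of endothelial cells (highest deposited FPKM of VWF 0.0163), epithelial cells (EPCAM 0.108), T cells (CD3D 0.108) and thyroid follicles (TG 0.0361) were under the filter, apart from the endothelial gene EMCN. In bulk RNA, fewer cells of a type and less RNA per cell cannot be told apart.

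**Figure D2:**
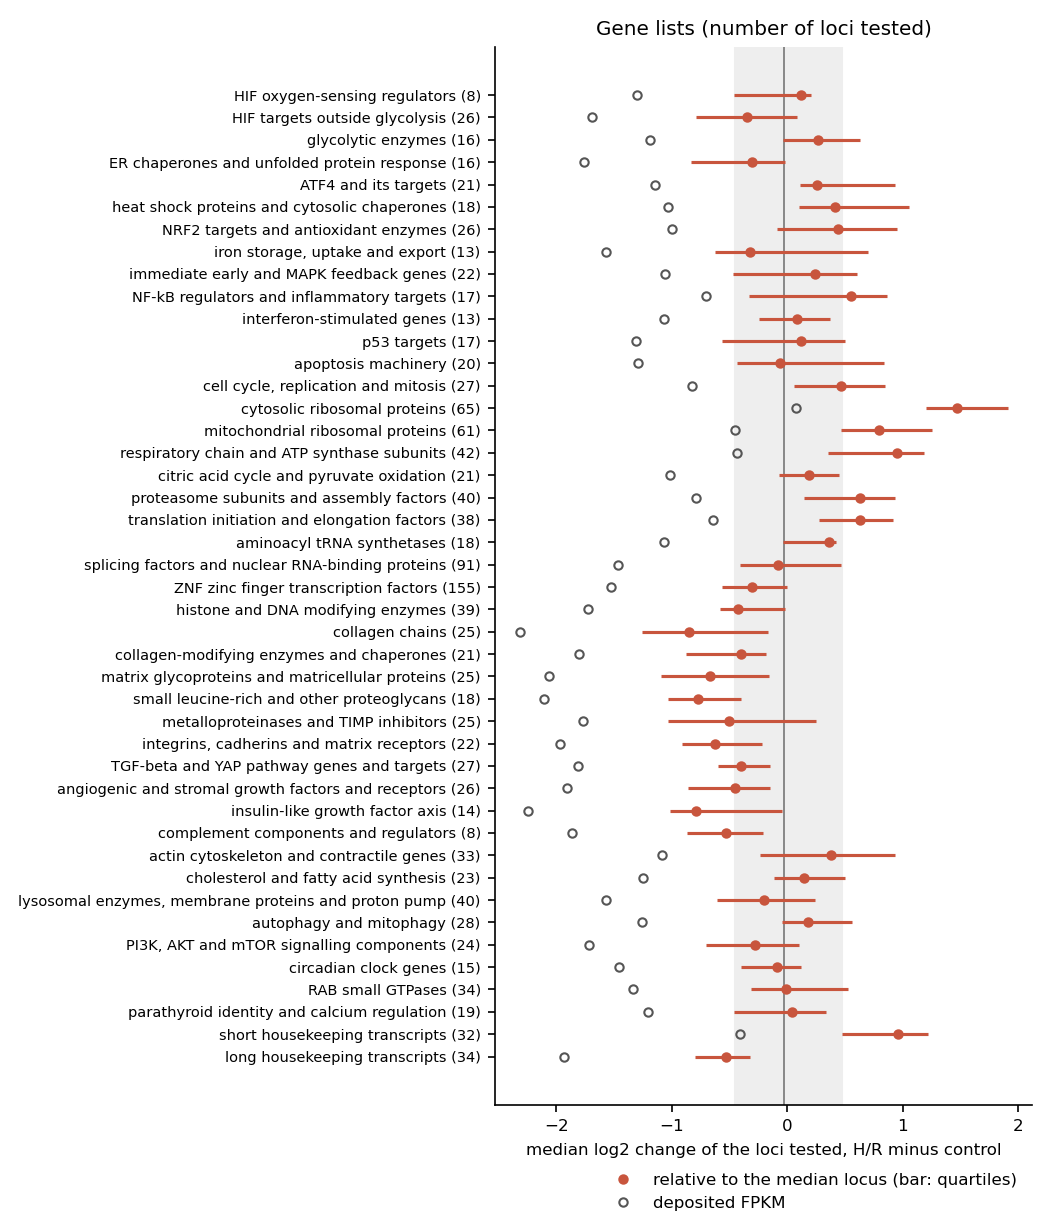
Median log2 change (H/R minus control) of 44 gene lists, with the number of loci tested in parentheses; filled points with bars are medians and quartiles relative to the median locus, open points medians on the deposited scale. The grey line and band are the median and quartiles of all 10921 loci; cytosolic ribosomal proteins (1.47, deposited 0.07) lie farthest right, and collagen chains (-0.85, deposited -2.31) farthest left.

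Among targets of HIF outside glycolysis, more fell than rose after reoxygenation. Of 26 tested targets of HIF outside glycolysis, 1 rose, 12 fell and 13 did not pass, with a median of -0.35. Without control 1 or control 3, 2 rose, and 0 rose without any one H/R library. The median was -0.17 without control 3. HIF1A, the oxygen-labile subunit, was at 1596, 1393 and 1308 in control and 866, 847 and 890.1 in H/R scaled FPKM. Every H/R library was below every control, a change of -0.72 ± 0.09 (SE, adjusted p = 5.22e-04). VEGFA, the angiogenic growth factor, was at 36.9, 34.05 and 34.6 in control and 21.7, 24.3 and 22.99 in H/R, again without overlap (-0.59 ± 0.08, adjusted p = 9.86e-04). The carbonic anhydrase CA12, which acidifies the outside of hypoxic cells, fell by 0.88.

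The largest falls among HIF targets were in enzymes that shape secreted proteins. PLOD2, a collagen lysyl hydroxylase, was at 1623, 3424 and 3263 in control and 862, 834 and 844 in H/R. Control 1 lay between the other controls and H/R, and the fall was 1.63 with it (adjusted p = 0.00237) and -1.97 on the log2 scale without it. P4HA1, a prolyl hydroxylase of collagen, had the same layout, with 1657, 3615 and 3791 in control and 994, 1005 and 992 in H/R (-1.51 ± 0.30). ERO1A, the oxidase that forms disulphide bonds in the endoplasmic reticulum (ER), fell by 1.54 and INSIG2, a brake on cholesterol synthesis, by 1.27.

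Among the 8 regulators of HIF tested, 2 rose, 2 fell and 4 did not pass. These shares were slightly under those of all loci tested (28.9% higher and 29.9% lower). Without control 1, 4 fell, and 1 rose without control 3, H/R 1, H/R 2 or H/R 3. The median was 0.12, and its sign turned at equal totals (-0.16), under quantile scaling (-0.003) and without control 1 (-0.28). The regulators named next do not stand for the list. HIF1AN, the asparagine hydroxylase that blocks HIF activity, fell by 0.70 beside HIF1A. EGLN2, a prolyl hydroxylase, rose by 0.47 relative to the median locus but was at -0.98 on the deposited scale. EPAS1 (HIF-2α) was at 1779, 1423 and 1392 in control and 1708, 1676 and 1686 in H/R; the H/R libraries lay between control 1 and the other controls, and the change of 0.15 did not pass (adjusted p = 0.244; 0.27 without control 1, adjusted p = 1.21e-04). Glycolytic enzymes moved apart from one another: of 16 loci tested, 6 rose, 2 fell and 8 did not pass, and their median of 0.27 was -0.02 at equal library totals and -1.18 on the deposited scale. Without control 1, 5 fell. The median was 0.05 without control 1 and 0.47 without control 3. GAPDH, at 1743, 3156 and 3511 in control and 8444, 8574 and 8461 in H/R, and TPI1, at 864, 1163 and 1267 in control and 2587, 2589.7 and 2524 in H/R, stood above every control in all H/R libraries (1.66 ± 0.25 and 1.24 ± 0.14), and GAPDH was 1.36 without control 1. HK2, which feeds glucose into the pathway, fell by 0.83 and PDK3, which holds pyruvate back from mitochondria, by 0.95. PGK1 and LDHA did not pass (0.28 and 0.11), with control 1 at 345 LDHA against 807 and 878 in the other controls. Without control 1, PGK1 was at -0.04 (adjusted p = 0.471) and LDHA at -0.31 (adjusted p = 6.85e-04).

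**Figure D3:**
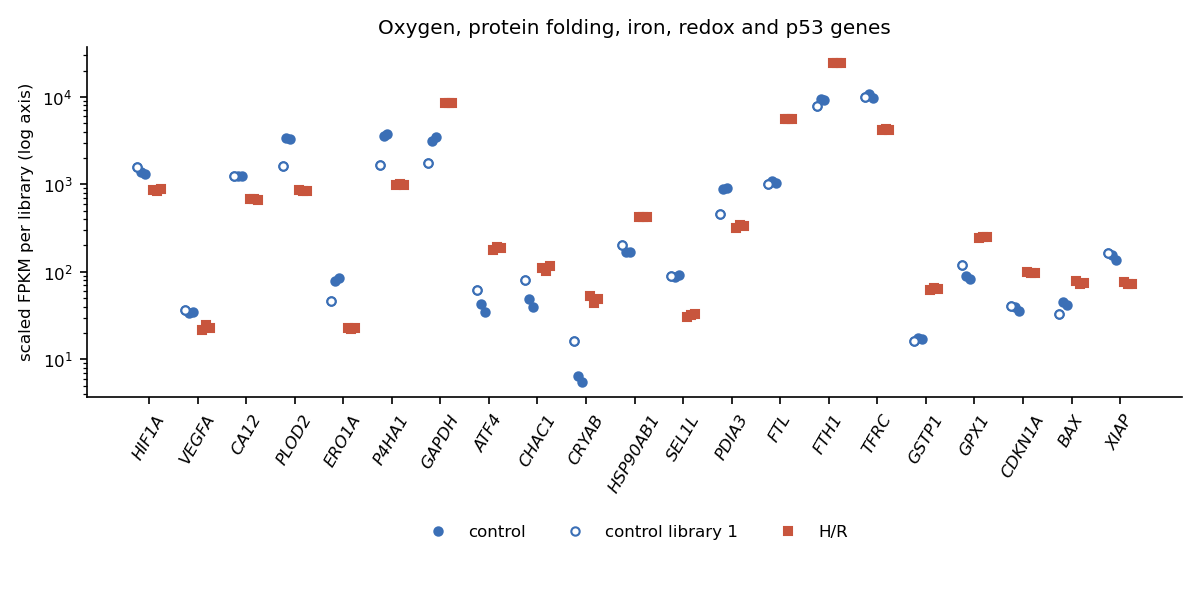
Scaled FPKM of 21 genes in each library on a log axis: controls as blue circles (control 1 open) and H/R as red squares, in library order. HIF1A, VEGFA, CA12, PLOD2, ERO1A, P4HA1, SEL1L, PDIA3, TFRC and XIAP are lower in all 3 H/R libraries; the other genes are higher on this scale, and of these GAPDH (0.20), ATF4 (0.57), CRYAB (1.004), FTL (0.95) and GSTP1 (0.44) also had log2 changes above 0 on the deposited scale, the remainder below 0.

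Cytosolic heat shock genes rose more often than they fell: of 18 loci tested, 10 rose, 1 fell and 7 did not pass (median 0.41, deposited -1.03). CRYAB, a small heat shock protein that holds unfolded clients, was at 16.02, 6.38 and 5.56 in control and 53.3, 43.5 and 48.3 in H/R. All H/R libraries were above all controls, by 2.39 ± 0.35 (adjusted p = 0.00126), on the deposited scale too (1.004). HSPB1, a related chaperone, rose by 1.73, the cytosolic chaperone HSP90AB1 by 1.23 and its co-chaperone FKBP4 by 1.13. HSPB8 was at 95.3, 15.7 and 17.2 in control and 95.9, 106 and 109.7 in H/R; control 1 alone was at the level of H/R, and the change of 1.76 did not pass (adjusted p = 0.0501; 2.58 without control 1, adjusted p = 2.16e-06). The mitochondrial chaperone HSPA9 was at -0.12 (adjusted p = 0.496).

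Among chaperones and quality control genes of the ER, more fell than rose. Of 16 tested genes of the ER and the unfolded protein response, 1 rose, 6 fell and 9 did not pass (median -0.30). Without control 1, 3 rose and 10 fell. SEL1L, a scaffold that moves misfolded proteins out of the ER, was at 89.4, 88.3 and 92.2 in control and 30.8, 32.5 and 32.6 in H/R. The groups were far apart and the spread within each was small (-1.46 ± 0.07, adjusted p = 1.01e-05). The disulphide isomerase PDIA3 fell by 1.10, the co-chaperones DNAJC3 and DNAJB9 by 0.88 and 0.87, the lectin chaperone CANX by 0.83 and XBP1, the transcription factor of this response, by 0.52. EDEM1, which takes part in the removal of glycoproteins, was at -0.05 (adjusted p = 0.738; -0.18 without control 1, adjusted p = 0.00853).

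Genes of the ATF4 response rose in part. ATF4, the transcription factor made when amino acids are short or proteins misfold, was at 61.2, 42.9 and 34.3 in control and 179, 190.2 and 185 in H/R. It rose by 2.02 ± 0.19 (adjusted p = 2.07e-04) and was higher on the deposited scale too (0.57). Of 21 tested loci in its list, 8 rose, 3 fell and 10 did not pass (median 0.26, -0.01 at equal totals and -1.14 deposited). Without control 1, 16 rose. The median was 0.56 without control 1 and 0.14 without control 3. NUPR1, a stress-induced chromatin protein, was at 20.7, 8.95 and 7.69 in control and 51.6, 49.1 and 44.5 in H/R (1.999 ± 0.33), and CHAC1, which breaks down glutathione, at 81.3, 48.5 and 39.5 in control and 111, 103 and 116 in H/R (1.01 ± 0.25). Control 1 was the highest control in all 3 genes. CHAC1 was at 1.31 without it. SHMT2 and MTHFD2, enzymes of mitochondrial one-carbon metabolism, rose by 1.01 and 0.94 (-0.45 and -0.52 deposited), and DDIT3 (CHOP) by 0.94. The cystine carrier SLC7A11 and the asparagine synthetase ASNS did not pass (-0.35 and 0.26), and without control 1 ASNS was at 0.56 (adjusted p = 0.00213) and SLC7A11 at -0.12 (adjusted p = 0.197).

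Antioxidant genes rose more often than they fell. Of 26 tested NRF2 targets and antioxidant enzymes, 13 rose, 2 fell and 11 did not pass (median 0.44, deposited -0.99). Without control 1, 4 fell, and 0 fell without control 2, H/R 2 or H/R 3 and 1 fell without control 3 or H/R 1. GSTP1, a glutathione transferase, was at 16.1, 17.7 and 16.96 in control and 62.04, 65.6 and 63.4 in H/R. Its rise of 1.85 ± 0.08 (adjusted p = 6.48e-06) was also called on the deposited scale (0.44). GPX1, a glutathione peroxidase, rose by 1.37, mitochondrial thioredoxin TXN2 by 1.47, cytosolic thioredoxin TXN by 0.87 and SRXN1, which restores oxidised peroxiredoxins, by 1.27. The quinone reductase NQO1 was at 854, 761 and 753 in control and 661, 708 and 697 in H/R, all H/R libraries just below the controls, and did not pass (-0.19, adjusted p = 0.0552; -0.13 without control 1, adjusted p = 0.0240).

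Ferritin, the iron store, rose in both subunits. FTL was at 1017, 1078 and 1047 in control and 5645, 5520.2 and 5544 in H/R. All H/R libraries lay far above the controls (2.41 ± 0.06, adjusted p = 2.11e-06). FTH1 was at 7928, 9541 and 9268 in control and 24305, 24416 and 24266 in H/R, higher in every H/R library relative to the median locus (1.45 ± 0.09) and at -0.01 on the deposited scale. The transferrin receptor TFRC, through which cells take up iron, was at 9908, 10686 and 9700.4 in control and 4136, 4256 and 4135 in H/R. It fell by 1.27 with no overlap (adjusted p = 1.91e-05), IREB2, an iron-responsive regulator of these messages, fell by 0.62, and the ferroxidase CP fell by 1.55. NCOA4, which delivers ferritin to lysosomes, rose by 0.70 (-0.73 deposited), and HMOX1, which frees iron from haem, by 1.40 (-0.03 deposited). HMOX1 was at 0.92 without control 1 and was not called without any one H/R library (0.0505 to 0.0586, adjusted p). In the whole list of 13 tested loci, 5 rose, 5 fell and 3 did not pass. Without H/R 1 or H/R 3, 3 rose. A separate locus described as FTH1 protein, LOC100349285, was at 72.96, 98.6 and 82.6 in control and 872, 856 and 806 in H/R, and reads of near-identical copies may be divided between it and FTH1.

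Early response genes were called at about the shares of all loci. Of 22 tested immediate early genes and feedback regulators of MAP kinase signalling, 7 rose, 7 fell and 8 did not pass (median 0.24, close to 0 at equal totals and -1.06 deposited), which makes 31.8% higher and 31.8% lower, beside 28.9% and 29.9% over all loci tested. Without control 1, 11 rose. The median was 0.14 without control 1 and 0.12 without H/R 1. ATF3, a stress-induced repressor, was at 19.9, 7.98 and 7.87 in control and 39.8, 47.8 and 38.9 in H/R; control 1 was the highest control and still below H/R (1.86 ± 0.33). FOS was at 52.6, 61.7 and 41.2 in control and 92.8, 103 and 85.8 in H/R, and FOS and JUN, the partners of the AP-1 factor, rose by 0.86 and 0.72 (-0.58 and -0.72 deposited). ZFP36, which destabilises inflammatory mRNAs, rose by 0.92 and the phosphatase DUSP1 by 0.60. EGR1 was at -0.22 (adjusted p = 0.276; -0.39 without control 3, adjusted p = 0.0263) and the feedback inhibitor SPRY4 fell by 0.63.

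Inflammatory genes were mixed. Of 17 tested regulators and targets of NF-kB, 8 rose, 5 fell and 4 did not pass (median 0.55, deposited -0.70). LIF, a cytokine of the interleukin-6 family, was at 35.8, 41.6 and 33.9 in control and 74.9, 68.4 and 61.3 in H/R (0.86 ± 0.11) and the alarmin IL1A at 3.66, 7.67 and 4.94 in control and 10.6, 10.5 and 10.9 in H/R (0.91 ± 0.22), both above all controls in every H/R library. PTGS2, the inducible cyclooxygenase, fell from 2669.8 ± 1018 to 1119.6 ± 3.58 (mean ± SD, n = 3), with a change of -1.53 without control 1 against -1.17 with it. Both inhibitors of the pathway moved, in opposite directions: NFKBIA rose by 0.55 (-0.67 deposited) and TNFAIP3 fell by 0.43. IL6 spread from 8.36 to 36.96 across controls and did not pass (adjusted p = 0.141; 0.90, and 1.34 with adjusted p = 0.0314 without control 2). Of 13 tested interferon-stimulated genes, 3 rose, 1 fell and 9 did not pass, and the antiviral GTPase MX1 rose by 0.56 (-0.87 deposited). That makes 23.1% of these genes higher and 7.69% lower, beside 28.9% and 29.9% over all loci tested. Without control 1, 5 rose, and 0 fell without control 2, H/R 1, H/R 2 or H/R 3.

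Targets of p53 moved in both directions. Among 17 tested targets, 5 rose, 7 fell and 5 did not pass (median 0.12, deposited -1.31), which makes 29.4% higher and 41.2% lower, beside 28.9% and 29.9% over all loci tested. The sign of that median turned at equal totals (-0.14), under quantile scaling (-0.09) and with FPKM of at least 1 in all 6 libraries (-0.09) or at least 5 in 3 (-0.30). The median was 0.08 without H/R 1. CDKN1A (p21), the inhibitor of cell cycle kinases, was at 40.7, 39.4 and 35.6 in control and 98.96, 96.4 and 97.9 in H/R. The lowest H/R library was 2.37 times the highest control on this scale (1.32 ± 0.08, adjusted p = 2.57e-05) and at -0.12 on the deposited one. PHLDA3, an inhibitor of AKT, rose by 1.19 and GADD45A by 0.81, while the death receptor FAS and the RNA-binding protein ZMAT3 fell by 0.74 and 0.75. In the apoptosis list of 20 loci tested, 7 rose, 6 fell and 7 did not pass, about the shares of all loci tested. Its median was -0.06, and the sign turned without H/R 1 (0.05) or control 1 (0.008). The genes named next do not stand for the list. The pro-apoptotic BCL2 relatives BAX, BAK1 and BAD rose by 0.90, 1.09 and 1.51, of which BAX (-0.54) and BAK1 (-0.35) were below 0 on the deposited scale and BAD was at 0.19. The caspase inhibitors XIAP and BIRC2 fell by 1.04 and 0.91 and the pro-survival MCL1 by 0.55.

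Genes of DNA replication and mitosis rose more often than they fell. Of 27 loci tested, 15 rose, 3 fell and 9 did not pass (median 0.46, deposited -0.83), and CDKN1A, an inhibitor, is among those that rose. Without control 2 or control 3, 1 fell. RRM2, the regulated subunit of ribonucleotide reductase, was at 2.33, 2.87 and 2.84 in control and 27.3, 24.2 and 37.7 in H/R. The lowest H/R library was 8.41 times the highest control (3.04 ± 0.17, adjusted p = 2.66e-05; deposited 1.75). MCM4, a subunit of the replicative helicase, was at 2.73, 2.71 and 2.45 in control and 11.97, 10.9 and 12.7 in H/R (1.82 ± 0.10; deposited 0.59). The mitotic cyclin CCNB1 rose by 1.55 from levels near 1 FPKM, and cyclin CCNE2, of S phase entry, which passed the filter through controls alone, fell by 0.93. The proliferation marker MKI67 reached at most 0.106 deposited FPKM and was not tested. The list had 39 loci, of which 12 stayed under 1 deposited FPKM in all 6 libraries.

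Ribosomal protein genes and most translation factors rose relative to the median locus. Of 65 tested cytosolic ribosomal protein genes, 63 rose, 0 fell and 2 did not pass, with a median of 1.47 and of 0.07 on the deposited scale, where 26 rose and 21 fell. Without control 1, 1 fell. RPL35 was at 9.92, 11.8 and 9.98 in control and 84.5, 78.2 and 89.9 in H/R, RPLP1, of the ribosomal stalk, at 136, 163 and 148 in control and 882, 900.4 and 876 in H/R, and RPL39 at 25.4, 16.2 and 15.1 in control and 107, 110.2 and 122 in H/R. The lowest H/R library was 6.64, 5.38 and 4.20 times the highest control, and the 3 genes were higher on the deposited scale (1.47, 1.11 and 1.12). RPL21 spread widely within both groups (13.9, 77.1 and 38.9 in control and 85.8, 83.9 and 272 in H/R) and did not pass (1.81, adjusted p = 0.0586; 2.37 without control 2, adjusted p = 0.0258). Of 38 tested initiation and elongation factors, 28 rose, 5 fell and 5 did not pass (median 0.63, deposited -0.64), with EEF1G and EEF1B2, subunits of the elongation factor that recharges EF-1α, up by 1.47 and 1.55. Without control 2, H/R 1 or H/R 3, 3 fell. Of 18 tested aminoacyl tRNA synthetases, 7 rose, 2 fell and 9 did not pass (median 0.36, deposited -1.07). Without control 1, 11 rose, and 4 rose without any one library other than control 1.

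Most mitochondrial ribosomal, respiratory and proteasome genes rose as well on this scale. Of 61 tested mitochondrial ribosomal proteins, 50 rose, 2 fell and 9 did not pass (median 0.79, deposited -0.45). Nuclear-encoded subunits of the respiratory chain and ATP synthase numbered 42, of which 34 rose, 0 fell and 8 did not pass (median 0.95, deposited -0.43). ATP5E, the small epsilon subunit of ATP synthase, was at 23.1, 31.4 and 30.04 in control and 162, 168 and 153 in H/R and COX4I1, a subunit of cytochrome c oxidase, at 68.5, 73.4 and 73.5 in control and 317, 318 and 289 in H/R. Both groups were tight and apart (2.49 ± 0.12 and 2.08 ± 0.07), and both genes were higher on the deposited scale (1.05 and 0.63). SDHA, the flavoprotein of complex II, was at 269, 275 and 275 in control and 289, 263 and 273 in H/R, a change of 0.01 (adjusted p = 0.903). Of 21 tested citric acid cycle genes, 10 rose, 3 fell and 8 did not pass (median 0.19, -0.05 at equal totals and -1.01 deposited), among them malate dehydrogenase MDH2, up by 1.11 (-0.18 deposited). Without control 2 or H/R 1, 1 fell, and 0 fell without H/R 2. Of 40 tested proteasome subunits and assembly factors, 28 rose, 3 fell and 9 did not pass (median 0.63, deposited -0.79), and the catalytic subunit PSMB5 rose by 1.46 (0.03 deposited).

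Housekeeping transcripts of other functions, listed from general knowledge as short or long, moved apart. In a list of 32 tested short ones, 24 rose, 3 fell and 5 did not pass (median 0.96, deposited -0.41). Without H/R 2 or H/R 3, 1 fell. In a list of 34 tested long ones, 0 rose, 28 fell and 6 did not pass (median -0.53, deposited -1.93). Without control 1, 2 rose. Ribosomal proteins and many respiratory subunits are encoded by short mRNAs, and most collagens, integrins and chromatin enzymes by long ones. The part of transcript length in the changes of these groups was not tested, since transcript lengths were not used here.

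Zinc finger and chromatin genes fell more often than they rose. Of 155 tested ZNF genes, which encode zinc finger transcription factors, 18 rose, 64 fell and 73 did not pass (median -0.31). Of these, 16 passed the filter through a single group, and among the other 139, 16 rose and 58 fell. ZNF652, a repressor, was at 305, 319 and 332 in control and 142, 146 and 142 in H/R (-1.15 ± 0.06) and ZNF304 at 114, 95.6 and 92.7 in control and 40.6, 46.1 and 45.6 in H/R (-1.17 ± 0.10), with the lowest control 2.09 and 2.01 times the highest H/R library. Of 39 tested enzymes that modify histones and DNA, 4 rose, 23 fell and 12 did not pass (median -0.43). Without control 2, control 3, H/R 1 or H/R 2, 2 rose. The acetyltransferase KAT2B fell by 1.02, the DNA demethylase TET2 by 0.90, the acetyltransferase EP300 by 0.68 and the methyltransferase KMT2A by 0.54, while KAT2A, a close relative of KAT2B, rose by 0.73 (-0.70 deposited). Splicing factors and nuclear RNA-binding proteins numbered 91, of which 27 rose, 34 fell and 30 did not pass (median -0.08), which makes 29.7% higher and 37.4% lower, beside 28.9% and 29.9% over all loci tested. The median was -0.05 without H/R 1. Among them the small core proteins SNRPD3 and SNRPD2 rose by 1.77 and 1.69, and HNRNPK was at -0.06 (adjusted p = 0.552).

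**Figure D4:**
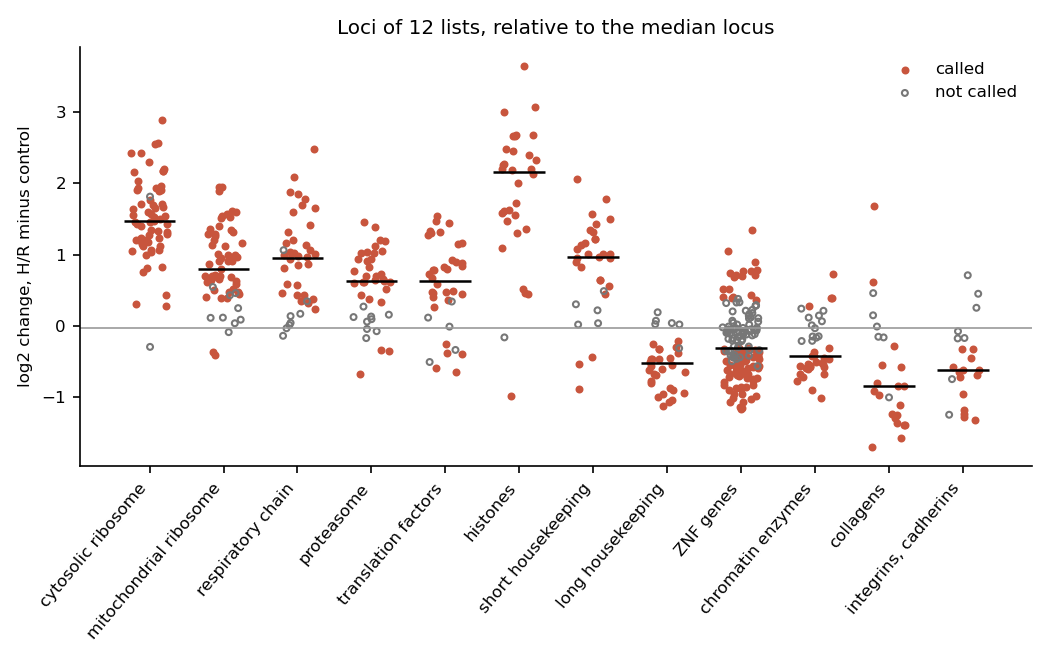
Log2 change (H/R minus control, relative to the median locus) of every locus tested in 12 lists; red points were called, open points were not, black bars are medians and the grey line is the median of all loci. Cytosolic ribosomal proteins centre at 1.47 (0.07 on the deposited scale), short housekeeping transcripts at 0.96 (-0.41), long ones at -0.53 (-1.93) and collagens at -0.85 (-2.31).

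Histone loci rose as well, although they were picked out after their values had been seen. Most carry LOC symbols and were found by their description, and 32 of 62 were tested, 7 of them through the H/R or the control libraries alone. Of the loci tested, 30 rose, 1 fell and 1 did not pass (median 2.16, deposited 0.87). Among the 25 that passed the filter through both groups, 24 rose and 0 fell. In the whole list, 0 fell without control 1, control 2, control 3 or H/R 2. LOC108177405, described as H4-like, was at 10.2, 7.26 and 7.13 in control and 67.3, 77.6 and 82.5 in H/R (3.07 ± 0.15; deposited 1.674). H3F3B, which encodes the replacement histone H3.3, was at 38.6, 29.9 and 28.2 in control and 46.2, 45.6 and 45.99 in H/R and rose by 0.51 (-0.91 deposited). Loci with LOC symbols described as 40S or 60S ribosomal proteins, 229 of 518 tested, also lay high: 193 rose, 23 fell and 13 did not pass (median 1.64, deposited 0.52, 34 passed through a single group). Among the other 195, 177 rose and 8 fell. In the whole list, 8 fell without control 1 or control 2, and 7 fell without control 3. Many of these may be near-identical copies of one another and of the named ribosomal genes, so reads may be divided between them and single values are uncertain. Of the 234 loci that rose by at least 2 on the log2 scale, 187 carry a LOC symbol, 90 of them described as ribosomal proteins. All 10921 loci tested include 1787 with a LOC symbol.

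Genes of the extracellular matrix fell more often than they rose in each of 4 classes. Of 25 tested collagen chains, 2 rose, 17 fell and 6 did not pass (median -0.85). Without control 1, 4 rose, and 1 rose without control 2, control 3, H/R 1 or H/R 2. The collagen I chain COL1A2 was at 51275, 92486 and 91688 in control and 25345, 25407 and 25374 in H/R. The H/R libraries were nearly equal and below all controls, of which control 1 was the lowest (-1.58 ± 0.23, adjusted p = 0.00121). COL3A1 fell by 1.26, the fibril-associated COL12A1 by 1.39, COL6A3 by 1.37 and COL25A1, a membrane collagen, by 1.71. COL7A1, the chain of anchoring fibrils, went the other way, with 14.1, 7.05 and 6.25 in control and 32.96, 26.9 and 29.8 in H/R (1.68 ± 0.27; deposited 0.31), and COL6A1 did not pass (0.15; 0.52 without control 1, adjusted p = 0.00406).

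Of 21 tested enzymes and chaperones of collagen, 2 rose, 10 fell and 9 did not pass (median -0.40). Without control 1, 16 fell, and 1 rose without H/R 2 or H/R 3. The median was -0.61 without control 1, -0.25 without control 2 and -0.24 without control 3. PLOD2 and P4HA1, given above, stand both in this list and in that of HIF targets. The cross-linking oxidase LOX fell by 0.96. Matrix glycoproteins followed: of 25 loci tested, 2 rose, 13 fell and 10 did not pass (median -0.66). Without any one library other than control 1, 1 rose, and 8 fell without control 2. Fibronectin (FN1) was at 3294, 3342 and 3523 in control and 1714, 1719 and 1709 in H/R, with control 1 level with the other controls (-0.98 ± 0.06, adjusted p = 3.15e-05). Thrombospondins THBS1 and THBS2, which bind matrix, fell by 1.37 and 1.81 and the laminin chain LAMB1 by 1.24, while LAMB2 was at -0.18 (adjusted p = 0.169). Of 18 tested proteoglycans, 0 rose, 11 fell and 7 did not pass (median -0.77). Without control 1, 1 rose. Asporin (ASPN) was at 220.3, 357 and 337 in control and 83.6, 88.2 and 84.2 in H/R (-1.79 ± 0.18), and versican (VCAN), a large hyaluronan-binding proteoglycan, fell by 1.61. Decorin (DCN) in control 1 (253) was level with H/R (235 to 252) and did not pass (-1.26, adjusted p = 0.0557). It was at -1.87 without control 1 (adjusted p = 4.73e-07).

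Fibroblast markers moved with the matrix lists. Of 9 markers tested, 0 rose, 5 fell and 4 did not pass (median -0.85), and FAP, a surface protease of fibroblasts, fell by 1.66. Several of these markers are themselves collagens and proteoglycans and stand in both lists. Their part in the matrix result was not tested. Macrophage markers varied among the controls. Of 16 listed, 5 were tested and 1, the growth factor receptor CSF1R, rose by 1.06. Without control 1, 3 rose and 1 fell, and 2 rose without control 3. The summed scaled FPKM of macrophage markers was 3.18 to 57.3 in control and 40.8 to 47.5 in H/R, the lowest value being that of control 1, and the mannose receptor MRC1 was at 1.01, 30.3 and 33.8 in control and 21.5, 20.4 and 21.5 in H/R. Without control 1, MRC1 was at -0.57 (adjusted p = 0.00110) against 0.77 with it.

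Metalloproteinases, which cut matrix, contained some of the largest changes in both directions. Of 25 tested proteinases and TIMP inhibitors, 5 rose, 14 fell and 6 did not pass (median -0.50). MMP1, a collagenase, was at 1.21, 12.9 and 7.90 in control and 62.9, 65.4 and 62.6 in H/R. The lowest H/R library was 4.85 times the highest control, and the change was 3.31 ± 0.62 with control 1 and 2.53 without it. MMP9, a gelatinase, was at 2.48, 6.62 and 4.96 in control and 39.7, 47.4 and 44.04 in H/R (3.04 ± 0.28), and ADAMTS4, an aggrecanase, at 14.7, 31.5 and 23.6 in control and 154, 147 and 164 in H/R (2.75 ± 0.25). These 3 genes were higher on the deposited scale too (1.98, 1.70 and 1.31). MMP3 and MMP10, the stromelysins, rose by 2.07 and 2.34 from control values of 0.642 to 3.35 and of 0 to 0.158 scaled FPKM, and the fitted change of MMP10, which passed the filter through H/R alone, depends on the added 1.

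MMP13, a collagenase as well, went in the opposite direction. It was at 3305, 4523 and 4512 in control and 643, 649.5 and 621 in H/R, the lowest control being 5.09 times the highest H/R library (-2.67 ± 0.13, adjusted p = 1.33e-05). ADAM10, a sheddase of surface proteins, fell by 1.30, the gelatinase MMP2 by 0.79 and ADAM12 by 1.57. Control 1 was the lowest control in MMP13, MMP2 and ADAM12 but not in ADAM10, where it was at 430.0 against 407 and 381. The inhibitors TIMP1 and TIMP3 did not pass (0.04 and -0.50), and without control 1 they were at -0.30 (adjusted p = 0.00296) and -0.77 (adjusted p = 7.75e-05).

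Receptors that hold cells to matrix fell beside it. Of 22 tested integrins, cadherins and matrix receptors, 0 rose, 14 fell and 8 did not pass (median -0.62). Without control 1, 3 rose. The vitronectin receptor chain ITGAV was at 1353, 2009 and 1965 in control and 738, 692 and 734 in H/R (-1.28 ± 0.15, adjusted p = 5.55e-04), and its partner ITGB1 fell by 0.96, the fibroblast cadherin CDH11 by 1.32 and ITGA4 by 1.24. CD44, the hyaluronan receptor, was at -0.17 (adjusted p = 0.276). Genes of the TGF-beta and YAP pathways, which drive matrix production and answer to tension, were also lower: of 27 loci tested, 2 rose, 17 fell and 8 did not pass (median -0.40). Without control 1, 4 rose. The receptor TGFBR1 was at 299, 274 and 264 in control and 134, 127 and 124 in H/R, with no overlap (-1.11 ± 0.07), and the receptor TGFBR2, the ligand-binding protein LTBP1 and the target CTGF fell by 0.60, 1.31 and 0.95. The targets TAGLN and TGFBI rose by 1.32 and 1.16 (-0.14 and -0.30 deposited).

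Genes of growth factors, of the insulin-like growth factor axis and of complement fell more often than they rose. Of 26 tested angiogenic and stromal growth factors and receptors, 2 rose, 14 fell and 10 did not pass (median -0.46). ANGPT1, which stabilises vessels through the receptor TIE2, was at 63.7, 64.03 and 62.1 in control and 13.3, 14.4 and 12.5 in H/R. It was among the tightest large falls, with control 1 at the level of the other controls (-2.16 ± 0.08, adjusted p = 5.47e-06). The stromal chemokine CXCL12 was at 19.8, 73.2 and 73.97 in control and 8.34, 8.76 and 11.2 in H/R (-2.23 ± 0.49; -2.82 without control 1), and the epidermal growth factor receptor EGFR fell by 0.86. BMP2 rose by 1.39 and PDGFA by 1.08 (0.12 and -0.33 deposited). In the insulin-like growth factor axis, 2 rose, 9 fell and 3 did not pass of 14 tested (median -0.79). Without control 2, control 3, H/R 1 or H/R 3, 0 rose, and 1 rose without H/R 2. IGF1 was at 48.5, 91.9 and 89.7 in control and 27.7, 26.1 and 29.1 in H/R (-1.39 ± 0.24), and its receptors IGF1R and IGF2R fell by 0.99 and 1.02. Complement components and regulators fell in 5 of 8 tested cases and rose in 0, and the protease C1S fell by 0.98. Without control 1, 2 rose. CFB did not pass (0.45) and was at 0.97 without control 1 (adjusted p = 0.00114).

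**Figure D5:**
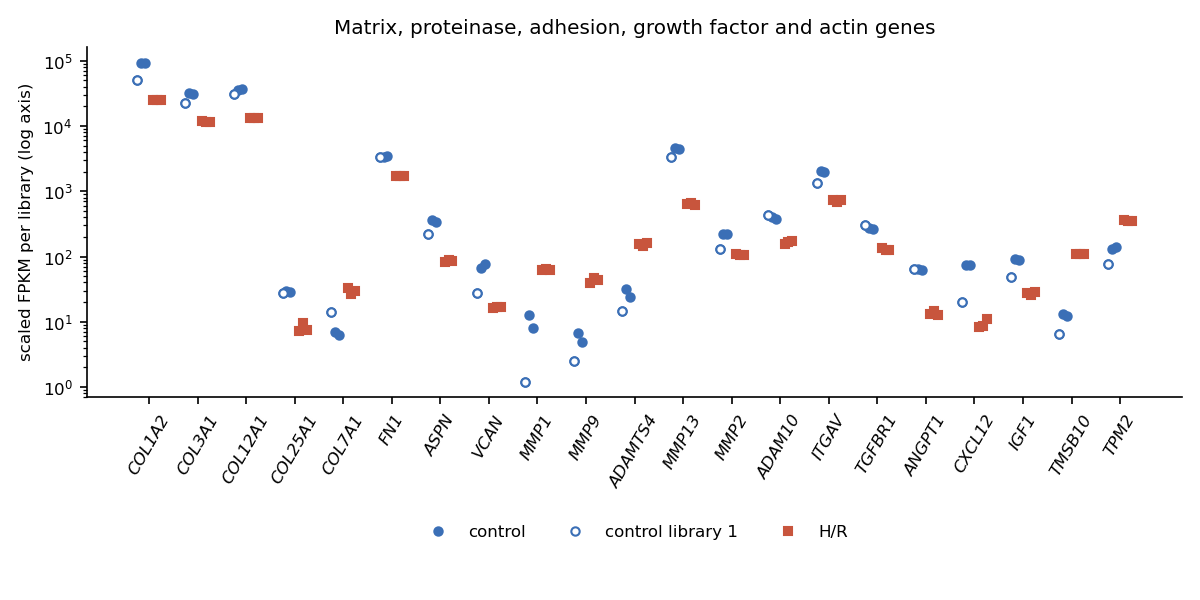
Scaled FPKM of 21 matrix, proteinase, adhesion, growth factor and actin genes in each library on a log axis: controls as blue circles (control 1 open), H/R as red squares. COL7A1, MMP1, MMP9, ADAMTS4, TMSB10 and TPM2 are higher in all 3 H/R libraries, with deposited log2 changes of 0.31, 1.98, 1.70, 1.31, 1.90 and 0.21; the other genes are lower on both scales.

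Actin genes moved in both directions, with more up than down relative to the median locus. Of 33 tested cytoskeletal and contractile genes, 15 rose, 7 fell and 11 did not pass (median 0.38, deposited -1.09). Without control 1, 12 fell, and 3 fell without control 2, control 3, H/R 1 or H/R 3 and 4 fell without H/R 2. The median was 0.21 without control 1. Of 10 markers of smooth muscle cells and pericytes, 5 were tested, TAGLN rose, 0 fell and 4 did not pass, among them ACTA2 and MYH11. The median of the tested markers was 0.30, and -0.03 without control 1, where 2 rose. The summed scaled FPKM of these markers was 1748 to 2803 in control and 4922 to 4966 in H/R, and their part in the result for actin genes was not tested. TMSB10, a thymosin that sequesters actin monomers, was at 6.46, 13.04 and 12.2 in control and 111, 110.1 and 108 in H/R (3.31 ± 0.23, adjusted p = 6.06e-05; deposited 1.90). The lowest H/R library was 8.29 times the highest control. The tropomyosin TPM2 was at 75.8, 129.7 and 138 in control and 356, 352 and 353 in H/R (1.669 ± 0.22), the myosin light chain MYL9 rose by 1.54, cofilin (CFL1), which severs filaments, by 1.27 and ACTB by 0.95 (-0.18 and -0.52 deposited). Vinculin (VCL), a large protein of focal adhesions, fell by 0.66. A second locus described as TMSB10, LOC108177453, was at 29.3, 53.9 and 48.4 in control and 409, 424 and 407 in H/R, and reads may be divided between the copies.

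Lysosomal genes were mixed, with 9 of 40 tested up and 16 down (median -0.20). Without H/R 1, 10 fell. The median was -0.36 without control 1, -0.06 without control 2 and -0.10 without control 3. LAMP2, a protein of the lysosomal membrane, was at 798, 1027 and 949.8 in control and 365, 355 and 356 in H/R (-1.36 ± 0.10, adjusted p = 6.74e-05), and the lipase LIPA fell by 1.02. ATP6V1F, a small subunit of the proton pump, rose by 1.61. Autophagy genes rose in 12 of 28 tested cases and fell in 2 (median 0.18, -0.12 at equal totals and -1.26 deposited). Without control 3, 1 fell. MAP1LC3B, which coats autophagosomes, was at 15.2, 19.4 and 19.7 in control and 36.1, 41.4 and 34.9 in H/R (1.01 ± 0.13), the mitophagy kinase PINK1 rose by 0.82 and the cargo receptor SQSTM1 by 0.70 (-0.39, -0.62 and -0.76 deposited). In the PI3K, AKT and mTOR pathway 4 rose, 11 fell and 9 did not pass of 24 tested (median -0.28). The catalytic subunit PIK3CA fell by 0.96 and the transcription factor FOXO1 by 0.95, while the kinase SGK1 and EIF4EBP1, a repressor of cap-dependent translation, rose by 1.59 and 1.18 (0.20 and -0.27 deposited).

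Cholesterol and fatty acid synthesis genes rose in 7 of 23 tested cases and fell in 2 (median 0.14, -0.13 at equal totals, -0.03 under quantile scaling and -1.25 deposited). Their shares were 30.4% higher and 8.70% lower, beside 28.9% and 29.9% over all loci tested. Among them the desaturase FADS2 rose by 0.94 (-0.51 deposited). Without control 1, 5 fell, and 1 fell without control 2, control 3 or H/R 2, 4 rose without H/R 1 or H/R 2 and 0 fell without H/R 1. The median was 0.06 without control 1 and 0.22 without control 2 or control 3. Of 15 tested circadian clock genes, 3 rose, 4 fell and 8 did not pass. That makes 20.0% higher and 26.7% lower, beside 28.9% and 29.9% over all loci tested. Without control 1, 7 fell, and 1 rose without any one library other than control 1. CLOCK and ARNTL, the activators of the clock, fell by 0.61 and 0.44, and the repressor NR1D2 by 0.77. Changes in this list ran from -0.77 to 0.91, so these 3 genes do not stand for it. RAB small GTPases, which direct vesicle traffic, were called 11 times up and 9 times down of 34 tested, which makes 32.4% higher and 26.5% lower, beside 28.9% and 29.9% over all loci tested. RAB13, of junctional traffic, was at 22.6, 21.9 and 21.9 in control and 193, 164 and 174 in H/R, the lowest H/R library 7.25 times the highest control (2.94 ± 0.08; deposited 1.504). Of 19 tested genes of parathyroid identity and calcium handling, 5 rose, 6 fell and 8 did not pass, which makes 26.3% higher and 31.6% lower, beside 28.9% and 29.9% over all loci tested. The plasma membrane calcium pump ATP2B1 was at 69.6, 64.7 and 61.97 in control and 33.1, 35.2 and 36.9 in H/R (-0.88 ± 0.08), and AP2S1, an adaptor subunit of endocytosis that acts on the calcium-sensing receptor, rose by 1.32 (-0.10 deposited).

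Outside the lists, SLC12A1, the salt cotransporter of the kidney's thick ascending limb, was the named gene with the largest fitted rise. It was at 0.0447, 0.0335 and 0 in control and 60.3, 64.7 and 61.4 in H/R scaled FPKM, so it was close to 0 in controls and its fitted change of 5.94 depends on the added 1 (8.96 with 0.1 added). It passed the filter through H/R alone and so had to be higher there. TEX14, known from bridges between germ cells, was at 3.68, 3.11 and 3.25 in control and 54.3, 53.6 and 53.4 in H/R (3.66 ± 0.09) and the chromatin protein HMGA1 at 5.64, 4.12 and 2.69 in control and 32.8, 27.6 and 35.5 in H/R (2.71 ± 0.22). TEX14 and HMGA1 had no overlap between the groups and were higher on the deposited scale too (2.32 and 1.38). Among the largest falls were FSIP1 (-2.38), the adhesion gene CNTN1 (-2.36), the anion transporter SLC26A7 (-2.21), ECM2 (-2.09) and EDIL3 (-2.03), an integrin ligand. Control 1 was the lowest control in all 5, and without it they were at -2.91, -2.95, -2.92, -2.56 and -2.47. IGSF10 (-2.70), POSTN (-2.54), TMEM26 (-2.18) and LAMA1 (-2.01) were called as well, LAMA1 having passed the filter through controls alone. These calls were lost without single libraries, at changes of -2.54 to -2.32, -2.64 to -2.02, -2.24 to -1.75 and -2.15 to -1.85. IGSF10 was not called without H/R 1 or control 2 (adjusted p = 0.0594 and 0.0600), TMEM26 without H/R 1, H/R 2, control 2 or control 3 (0.0562 to 0.0757) and LAMA1 without any one H/R library (0.0529 to 0.0778). POSTN was not called without any one library other than control 1 (0.0558 to 0.0708).

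A pair of uncharacterised loci held a large share of the deposited FPKM sum in H/R, and both were chosen after their values had been seen. Without read counts, their share of the reads is unknown. LOC102723302 was at 6403, 10324 and 8766 in control and 251681, 193299 and 244363 in H/R scaled FPKM. It held 0.599%, 0.857% and 0.719% of the deposited FPKM sum in control and 17.5%, 13.8% and 17.05% in H/R (4.77 ± 0.19, deposited 3.31). The locus listed as LOC108176166;LOC100353654 held 0.455% to 0.518% in control and 5.63% to 5.90% in H/R (3.88 ± 0.11, deposited 2.42). The descriptions call both uncharacterised proteins. Without the pair, the mean sum of deposited FPKM was 1654599 in control and 581351 in H/R.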

How the data were processed

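Libraries were made from purified total RNA with a TruePrep kit, per the labels' protocols. A single deposited table gives FPKM, per the file headers, for each library, and the deposited q-value and p-value of a 3-group test by the authors, both left unused. The submitters' processing notes name only mouse builds, while the transcripts and descriptions in the table belong to rabbit and other mammals, so no coordinates are printed. Aligner, quantifier and versions: not given in the sources used here. No steps of whole reads were found in low values (1.37% of 658 low loci shared the commonest ratio between libraries), so no counts were recovered.

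The scale factor of a library was the median ratio of its values to the 6-library mean, taken over the 9378 loci with FPKM no lower than 1 in any of the 6 (factors 1.54, 1.41 and 1.38 in control and 0.521, 0.521 and 0.524 in H/R). Loci reaching FPKM 1 in 3 or more libraries entered a limma fit (3.58.1, R 4.3.3) of log2(scaled FPKM + 1) with 1 mean for each group, trended and robust eBayes, two-sided p-values and Benjamini-Hochberg adjustment over all loci tested. A call needed an adjusted p under 0.05. The script was tested on simulated data. Alternatives were deposited, equal-total and quantile scaling, other filters, 0.1 in place of the added 1, all 9 libraries, no trend, the replicate number as a block and each library left out.

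The samples, gene lists and named genes were chosen with earlier results of these data known. By rule, the text names up to 12 genes per direction with the largest change (called, no overlap, 10 FPKM or more on average where higher, a single gene symbol), up to 6 higher on both scales, up to 4 called members of each list with the largest change and its most abundant uncalled one, and PTH, CHGA, HIF1A, VEGFA and MKI67. Some genes that the rule picks are not reported here. Other list members, and loci with LOC or joined names, were chosen after their values were seen. No sequences are printed, since none were used here.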

Additional observations from a re-analysis of the deposited data

How the results depend on the processing

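On the deposited scale 9841 loci were called, 434 higher and 9407 lower, and at equal library totals 2056 were higher and 4677 lower, so that 49.1%, 4.41% and 30.5% of calls were higher relative to the median locus, on the deposited scale and at equal totals. Under the other alternatives, single libraries left out included, calls ranged from 5267 to 6891. Leaving out 1 library gave 5267 to 6731 calls and a difference in the sum of FPKM of -943946 to -919708. Same-numbered libraries did not deviate together (correlations of -0.0094, -0.019 and -0.0069 between the deviations of controls and H/R from their group means, across loci), so the numbers were not taken to pair the libraries, and the fit with a replicate block called 6027 loci, 2968 higher and 3059 lower. The alternative on transcript length was not run, because no transcript lengths were used here. With unknown depth, precision rests on 3 libraries a group, and neither scale measures total RNA per cell. Where a list had 0 calls in one direction by limma, the count at an unadjusted p under 0.05 was 1 for lower cytosolic ribosomal proteins and 0 for the other such lists.

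Of the genes named with values, 42 that rose relative to the median locus were below 0 on the deposited scale, with log2 changes of: EGLN2 -0.98, H3F3B -0.91, MX1 -0.87, DUSP1 -0.86, SQSTM1 -0.76, NCOA4 -0.73, JUN -0.72, KAT2A -0.70, NFKBIA -0.67, PINK1 -0.62, TXN -0.58, FOS -0.58, LIF -0.57, BAX -0.54, MTHFD2 -0.52, GADD45A -0.52, ACTB -0.52, FADS2 -0.51, ZFP36 -0.47, SHMT2 -0.45, CHAC1 -0.43, MAP1LC3B -0.39, IL1A -0.37, BAK1 -0.35, PDGFA -0.33, TGFBI -0.30, EIF4EBP1 -0.27, PHLDA3 -0.26, DDIT3 -0.24, HSP90AB1 -0.22, TPI1 -0.22, FKBP4 -0.19, MDH2 -0.18, CFL1 -0.18, TAGLN -0.14, CDKN1A -0.12, AP2S1 -0.10, GPX1 -0.0887, SRXN1 -0.0547, CSF1R -0.0396, HMOX1 -0.0322, FTH1 -0.0104.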

Other observations

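Some further loci with LOC symbols moved far and were picked out after their values had been seen. LOC103351326, described as a USP6 N-terminal-like protein, a regulator of small GTPases, was at 4.63, 6.03 and 5.50 in control and 167, 173 and 160.2 in H/R scaled FPKM (4.72 ± 0.10, deposited 3.34). Loci with LOC symbols described as zinc finger proteins, 84 of 170 tested, lay on the low side as the named ZNF genes did: 4 rose, 39 fell and 41 did not pass (median -0.35), and 11 of those tested passed the filter through a single group. Among the other 73, 3 rose and 32 fell. In the whole list, 2 rose without H/R 1 or H/R 2. Over all LOC symbols, 797 rose and 347 fell of 1787 tested, beside 3152 and 3265 of the 10921 loci tested in all.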
